A study of Rattus norvegicus with 6 samples.

Results

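The 46 genes described here encode subunits of respiratory complexes II, III, IV and V, together with cytochrome c (Cycs), in rat trigeminal ganglia. They are the rows of the deposited count table whose symbol is on a fixed list of subunits, and all 46 were found among its 29884 genes. Of these, 6 lie in the mitochondrial genome (CYTB, COX1, COX2, COX3, ATP6 and ATP8) and 40 in the nuclear genome. Complex II had 4 members, complex III 10 with 1 of them mitochondrial, complex IV 14 with 3 mitochondrial, and complex V 17 with 2 mitochondrial. RNA-seq was done on ganglia of wild-type rats in 2 groups of 3 libraries. Injury libraries came after chronic constriction of the infraorbital nerve (CCI-ION), a model of facial nerve pain. Conduit libraries came after the same constriction followed by SFM-Gel @NGC-Light, a light-driven gel in a nerve conduit. An uninjured group was not analysed here, so every value is from a constricted animal. The series title names mitochondrial function as its subject, and the comparison of conduit with injury asks whether these transcripts differ with the treatment.

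Respiratory chain complexes sit in the inner mitochondrial membrane and pass electrons from nutrients to oxygen. Complex II feeds electrons from succinate into ubiquinone, complex III hands them to cytochrome c, and complex IV passes them to oxygen. Complexes III and IV pump protons, and complex V, the ATP synthase, lets them return and makes ATP. Complex II is built only from nuclear genes. Mitochondrial DNA encodes cytochrome b of complex III, the catalytic core of complex IV and part of the proton channel of complex V. Sensory neurons, whose long axons need much ATP, are rich in mitochondria.

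The libraries held 40.2 M to 41.9 M counts, and 19894 to 21061 genes had at least 1 count. All 12 sensory neuron markers were counted in every library, with a summed level of 20776 to 29519 CPM (counts scaled to a common library total), as the tissue label states. Labelled days run from 14 to 19, rising by 1 from each sample to the next, with the injury samples earlier than the conduit samples. Injury 1 and 2 are labelled batch 1, injury 3 and conduit 1 batch 2, and conduit 2 and 3 batch 3, so only batch 2 holds both groups. The labels used here name no strain, age or sex, and they do not say that samples are separate animals. The p-values therefore measure the spread between these samples, which may be technical. Injury 1 and conduit 2 stand apart by skeletal muscle genes: 14 of them summed to 793 and 12210 CPM there, against 78.7 to 140.0 CPM in the other 4 libraries. Most of the sum in those other 4 came from a single listed gene, Pvalb, at 68.4 to 118 CPM. Red blood cell markers, also 12 genes, summed to 4477 to 5345 CPM in injury and 513 to 1275 CPM in conduit.

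Nuclear respiratory genes are known for promoters with sites for NRF-1 and for GABPA, an ETS factor. RefSeq promoters (build GRCr8, from 250 bases before to 50 after the transcription start) were at hand for 34 of the 40 nuclear members. Searched on both strands, the NRF-1 motif GCGCANGCG was present in 9 of the 34 (26.5%) and in 6.26% of all 27457 promoters of that length. The ETS motif CCGGAAG was present in 13 (38.2%), against 9.22% of all promoters, and 20 members (58.8%) held either of these motifs, against 14.2% of all. AAGATGGCG, a motif of YY1, was present in 3 members (8.82%, against 1.93%). Members held the TATA box TATAAA in 2 promoters (5.88%, against 14.3%) and the GC box GGGCGG in 11 (32.4%, against 34.9%). The E-box CAGCTG, bound by muscle regulators among others, was present in 5 members (14.7%, against 15.1%). Matches of different motifs were counted separately even where they overlapped. Member promoters had a median of 20.5 CpG dinucleotides, against 7 over all promoters, and a median GC content of 57.3%, against 52.3%. A match describes the letters only and shows no binding.

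The promoters of Sdha, Uqcrc1, Cox4i1 and Cox8a are shown as examples of member promoters with at least 2 matches to the NRF-1 or the ETS motif. They do not stand for the whole set, since 20 of the 34 members held either motif. Cox7b, a member with neither motif, had 6 CpG and 1 E-box. The promoters of Cox8b and Cox6a2, 2 muscle isoforms of complex IV that are no members, are shown beside them. Each promoter shown runs 5′ to 3′ on the strand of its gene, and capitals mark matches to the NRF-1, ETS, YY1 and E-box motifs. Sdha lies at chr1:30764303-30764602 on the plus strand with 3 NRF-1 matches, and Uqcrc1 at chr8:118467973-118468272 on the plus strand with 2 NRF-1 matches and 1 YY1 match. Cox4i1 lies at chr19:65630133-65630432 on the plus strand with 2 ETS matches and 1 E-box, and Cox8a at chr1:213833574-213833873 on the minus strand with 2 ETS matches and 16 CpG. Cox8b lies at chr1:205408224-205408523 on the minus strand with 2 E-boxes, 1 TATA box and 5 CpG. Cox6a2 lies at chr1:192219667-192219966 on the minus strand with 1 E-box and 5 CpG.
Sdha: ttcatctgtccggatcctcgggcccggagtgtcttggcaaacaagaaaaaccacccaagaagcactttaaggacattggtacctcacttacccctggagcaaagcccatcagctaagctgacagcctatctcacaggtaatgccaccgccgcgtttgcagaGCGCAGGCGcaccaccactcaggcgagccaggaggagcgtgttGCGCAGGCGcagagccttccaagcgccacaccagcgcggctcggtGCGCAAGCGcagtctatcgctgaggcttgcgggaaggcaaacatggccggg
Uqcrc1: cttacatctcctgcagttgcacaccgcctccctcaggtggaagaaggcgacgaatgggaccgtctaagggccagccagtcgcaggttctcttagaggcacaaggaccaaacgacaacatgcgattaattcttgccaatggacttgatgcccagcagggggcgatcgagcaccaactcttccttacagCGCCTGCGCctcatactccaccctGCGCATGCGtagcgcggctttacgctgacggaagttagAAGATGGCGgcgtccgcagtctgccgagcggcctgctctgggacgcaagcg
Cox4i1: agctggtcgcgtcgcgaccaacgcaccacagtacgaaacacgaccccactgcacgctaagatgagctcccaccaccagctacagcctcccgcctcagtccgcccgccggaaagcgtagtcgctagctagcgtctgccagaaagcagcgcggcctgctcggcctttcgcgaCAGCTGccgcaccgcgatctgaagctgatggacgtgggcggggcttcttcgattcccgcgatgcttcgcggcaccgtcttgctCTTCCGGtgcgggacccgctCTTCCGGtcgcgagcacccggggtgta
Cox8a: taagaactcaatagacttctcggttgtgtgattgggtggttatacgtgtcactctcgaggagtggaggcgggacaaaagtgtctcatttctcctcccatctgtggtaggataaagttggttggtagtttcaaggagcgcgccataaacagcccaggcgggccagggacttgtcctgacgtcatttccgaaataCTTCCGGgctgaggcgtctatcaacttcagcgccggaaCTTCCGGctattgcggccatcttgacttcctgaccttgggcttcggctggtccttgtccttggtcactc
Cox8b: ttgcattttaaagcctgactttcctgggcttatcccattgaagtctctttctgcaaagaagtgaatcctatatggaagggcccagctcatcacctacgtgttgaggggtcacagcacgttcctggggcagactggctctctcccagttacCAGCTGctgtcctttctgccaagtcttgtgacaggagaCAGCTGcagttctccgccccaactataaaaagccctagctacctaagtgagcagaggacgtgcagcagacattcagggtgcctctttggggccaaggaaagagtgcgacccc
Cox6a2: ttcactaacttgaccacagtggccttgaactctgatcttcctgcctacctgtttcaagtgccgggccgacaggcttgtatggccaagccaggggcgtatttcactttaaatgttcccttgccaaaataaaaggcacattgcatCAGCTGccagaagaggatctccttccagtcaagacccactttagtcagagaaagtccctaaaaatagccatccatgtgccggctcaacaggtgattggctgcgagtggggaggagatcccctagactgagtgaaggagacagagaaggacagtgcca

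These genes are among the most abundant transcripts of the ganglion. On the length-corrected scale of FPKM (counts per kilobase of transcript and per library total, mean of 6 libraries), COX1 stood at 13085, COX3 at 9332, COX2 at 7503, ATP6 at 7004 and CYTB at 4173. COX1 ranked between 1 and 2 among all genes in every library, COX3 between 2 and 3, COX2 and ATP6 between 4 and 5, and CYTB between 6 and 9. ATP8, which shares part of its sequence with ATP6 in the mitochondrial genome, was lower at 936 FPKM. No source used here says how reads in the shared stretch were assigned, so the level of ATP8 is uncertain. By median rank, 30 of the 46 members were among the top 500 genes and 45 among the top 1000.

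Nuclear members differed in level by complex. The 4 subunits of complex II had a median of 103 FPKM, from Sdhd (79.3), a membrane anchor, to Sdhb (123), the iron-sulfur subunit. In complex III the 9 nuclear members had a median of 104 FPKM, from Uqcrq (42.9) to Uqcrh (253), both small accessory subunits, and cytochrome c stood at 115. Nuclear members of complex IV had a median of 300 FPKM, from Cox7a2 (228) to Cox4i1 (594), and those of complex V a median of 225, from Atp5mc2 (95.3) to Atp5f1b (732). The nuclear subunits of complexes III and V had a larger ratio of highest to lowest FPKM than those of complexes II and IV. FPKM also depend on the length assigned to a gene, which counts and FPKM imply. Uqcrq and Uqcrb had similar levels in CPM (61.9 to 88.3 and 62.6 to 97.2). Their implied lengths were 1802 and 1042 bases, and Uqcrb stood at 76.4 FPKM. Many of these genes have processed pseudogene copies in mammalian genomes, and how reads shared with such copies were counted is not given, so single levels are uncertain to that extent.

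**Figure D1:**
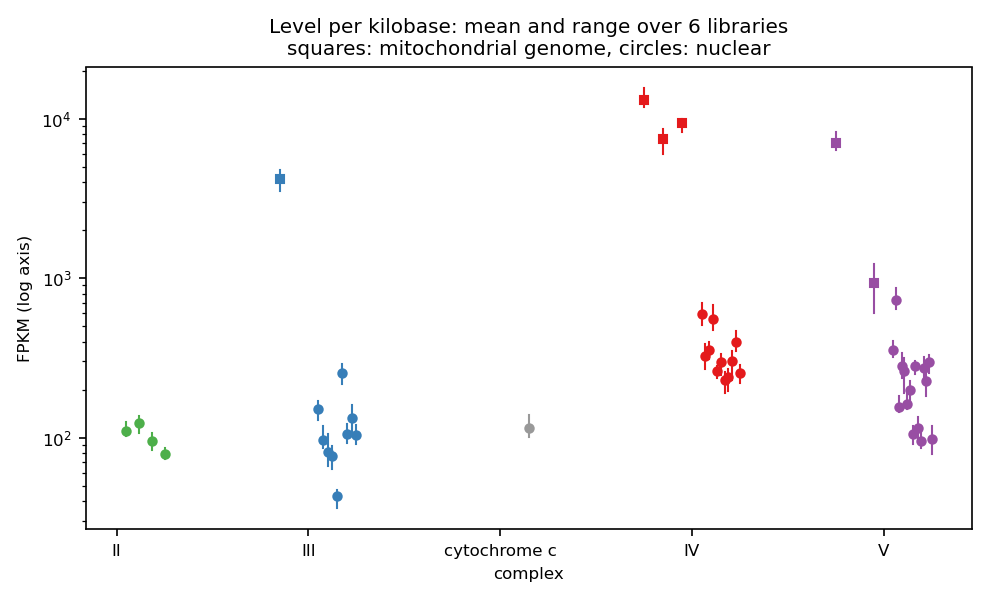
Mean FPKM of each of the 46 members over 6 libraries on a log axis, by complex, with mitochondrial and nuclear genes marked separately; points are genes. The 6 mitochondrial members lie above every nuclear member, and the 4 members of complex II span the narrowest range.

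The groups overlapped for every member, and none passed the edgeR quasi-likelihood test at a Benjamini-Hochberg adjusted p of 0.05 (0 of 46, where 0.00607% of all 16478 tested genes, 1 gene, passed), and the adjusted p was 0.99981 for each of them. At an unadjusted p of 0.05, 0 of 46 passed, against 5.35% of all genes tested. DESeq2 called 0 members at an adjusted p of 0.05 (1.19% of all genes) and 0 unadjusted (5.12%), and limma-voom called 0 adjusted (0.00607%) and 0 unadjusted (4.77%). Against the 46 of 46 members with overlapping groups, 5.41% of tested genes had all conduit libraries above all injury libraries and 4.22% the reverse. All 46 passed the filter on low counts, and the smallest count of a member in any library was 2111 (Atp5me). For single values, 3 libraries against 3 allow no two-sided exact permutation p under 0.1.

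Intervals of the fold changes were narrow. The 95% interval lay within a 2-fold change in either direction for 46 of 46 members, against 73.8% of tested genes, and within 1.5-fold for 42 of 46, against 56.0%. The 4 others were Uqcrfs1, Uqcr11, ATP8 and Atp5f1e, and the widest interval was that of ATP8, from -0.42 to 0.84 on the log2 scale. Fitted log2 fold changes, conduit minus injury, ran from -0.12 (Atp5mc2) to 0.25 (Uqcrfs1) with a median of 0.10, where the median over all tested genes was 0.0017. They were above 0 in 44 of 46 members, against 50.5% of all genes, and COX3 (-0.02) and Atp5mc2 were the exceptions with this scaling. They were above 0.1 in 23 of 46, against 27.1% of all genes. The count above 0 turned within batch 2, where conduit 1 lay above injury 3 in 8 of 46 members, with a median of -0.10 and no replicate. It was 24 of 46 without injury 2 (median 0.01, and 0.0 over all tested genes). With scaling to library totals only it was 36 of 46 (median 0.05, and -0.05 over all tested genes).

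**Figure D2:**
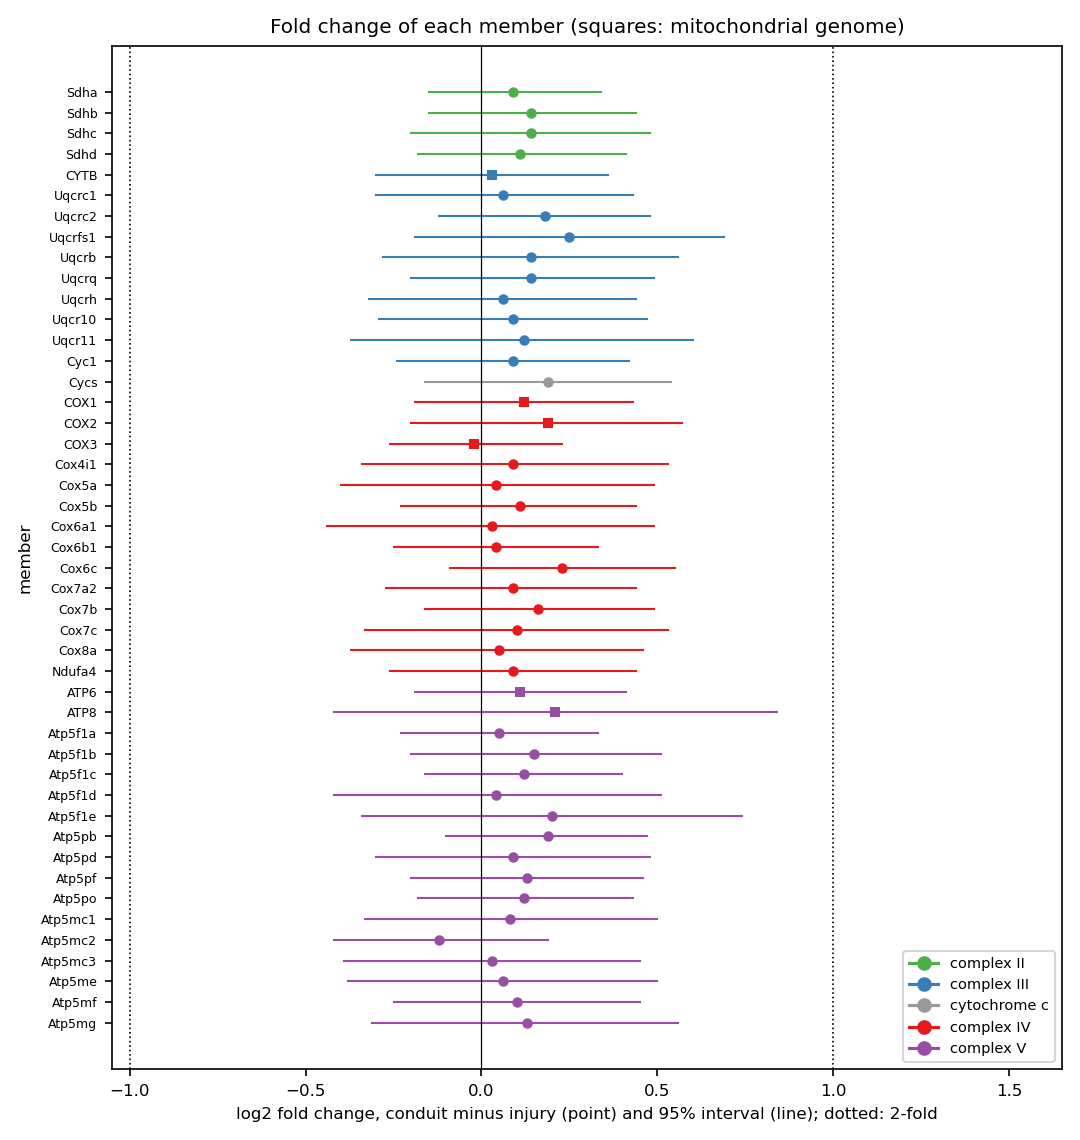
Log2 fold change of each member, conduit minus injury, with a 95% interval derived from the F statistic of edgeR, by complex. Dotted lines mark a 2-fold change in either direction. All 46 intervals cross 0 and stay inside the dotted lines.

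Complex II, the smallest of the set and wholly nuclear, had a median log2 fold change of 0.13. Its 4 members summed to 574 ± 48.3 CPM in injury and 623 ± 61.2 in conduit (SD, n = 3). The difference was about as large as the SD in injury and smaller than that in conduit. CPM here are scaled by edgeR's trimmed mean of M values, and parentheses after a gene's levels give its log2 fold change, conduit minus injury, with the standard error (SE). Sdhb, which carries electrons through its iron-sulfur clusters, stood at 125, 98.9 and 117 CPM in injury 1 to 3 and at 110.2, 135 and 131 in conduit 1 to 3 (log2 fold change 0.14, SE 0.12). Sdhc, a membrane anchor that helps to bind ubiquinone, stood at 132, 96.9 and 103 CPM in injury and at 107, 128 and 131 in conduit (0.14, SE 0.14). For both, injury 1 was near conduit 2 and 3, and conduit 1 near injury 2 and 3. Sdhd, the other anchor, was 107 ± 12.7 CPM in injury and 116 ± 12.7 in conduit (0.11, SE 0.12). Sdha, the flavoprotein that oxidises succinate, was at 251, 251 and 227 CPM in injury and at 238, 291 and 249 in conduit, the most even of the 4 between injury 1 and injury 2.

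Complex III had a median log2 fold change of 0.10 over 10 members and summed to 5876 ± 414 CPM in injury and 6078 ± 840 in conduit. CYTB, its mitochondrial subunit, which carries both ubiquinone sites, stood at 4078, 4954 and 5120 CPM in injury and at 4277, 5599 and 4583 in conduit. Its group means, 4717 ± 560 and 4819 ± 692, differed by less than either SD (0.03, SE 0.14). Injury 1 was the lowest of the 6 libraries for CYTB, whereas it lay above the mean of the 6 in 8 of the 9 nuclear members. Uqcrfs1, the Rieske iron-sulfur protein, stood at 124, 89.1 and 103 CPM in injury and at 100.5, 154 and 123 in conduit. That was the largest fitted difference among the members (0.25, SE 0.19, 95% interval -0.19 to 0.69), and conduit 1 lay below injury 1 and 3. Uqcrc2, a core protein of the complex, was 167 ± 9.04 CPM in injury and 189 ± 29.9 in conduit (0.18, SE 0.13). Conduit 2, at 222 CPM, accounted for its larger spread, since the other 5 libraries lay between 158 and 178.

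Cytochrome c, the small soluble carrier between complexes III and IV, had Cycs levels of 143, 119.6 and 125 CPM in injury and 119.1, 170.3 and 154 in conduit. The means were 129 ± 12.4 and 148 ± 26.2 CPM (0.19, SE 0.15), and conduit 1 was the lowest of all 6 libraries. Without conduit 1 the log2 fold change was 0.33 (edgeR adjusted p = 1.0). Cyct, the testis form of cytochrome c, had no count in any library.

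Complex IV, cytochrome c oxidase, took the most counts, with 33691 ± 3069 CPM in injury and 36084 ± 4277 in conduit over 14 members, and a median log2 fold change of 0.09. Its 3 mitochondrial subunits form the core, with COX1 holding the oxygen-reducing centre and COX2 receiving electrons from cytochrome c. COX1 stood at 20847, 17386 and 20039 CPM in injury and at 19284, 24454 and 19562 in conduit (0.12, SE 0.13). COX2 stood at 5054, 3919 and 5480 CPM in injury and at 4591, 6011 and 5866 in conduit (0.19, SE 0.16). Both were lowest in injury 2 and highest in conduit 2. In the other 4 libraries, COX1 was lower in conduit 1 and 3 than in injury 1 and 3, while the groups interleaved for COX2. COX3 was 7365 ± 228 CPM in injury and 7286 ± 786 in conduit (-0.02, SE 0.10), with a smaller spread in injury than in conduit.

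Among the 11 nuclear members of complex IV, which surround and regulate the core, Cox6c had the smallest p of the whole set. It stood at 139, 105.5 and 126 CPM in injury and at 126, 149.8 and 159 in conduit (0.23, SE 0.13, 95% interval -0.09 to 0.55). Conduit 2 and 3 lay above all injury libraries, and conduit 1 lay level with injury 3. Cox7b stood at 101 ± 16.1 CPM in injury and 113 ± 10.1 in conduit (0.16, SE 0.14), and Cox5b at 167 ± 22.5 and 180.0 ± 24.6 (0.11, SE 0.14). Cox4i1, a regulatory subunit and the most abundant nuclear member of the complex on the FPKM scale, stood at 498, 335 and 372 CPM in injury and at 350, 454 and 483 in conduit. Injury 1 was its highest library and injury 2 its lowest, so the whole range of this gene was found within the injury group.

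Complex IV subunits VIa, VIIa and VIII exist as pairs of a widely expressed form and a form of heart and skeletal muscle. Cox6a1, the widely expressed form of VIa, stood at 366, 248 and 301 CPM in injury and at 265, 278 and 389 in conduit. Cox6a2, its muscle form, stood at 6.36, 0.213 and 0.241 CPM in injury and at 0.217, 63.3 and 0.276 in conduit, from 9 to 2521 counts. In FPKM the muscle form amounted to 23.8% of Cox6a1 in conduit 2 and 1.82% in injury 1, and to between 0.0743% and 0.0898% in the other 4 libraries. Cox8b, the muscle form of VIII, followed the same 2 libraries, at 2.26 CPM in injury 1 and 25.4 in conduit 2, against 0.0241 to 0.301 elsewhere (1 to 12 counts). It reached 22.3% of Cox8a in conduit 2 and 1.52% in injury 1, and between 0.0209% and 0.193% in the others. Acta1, the actin of skeletal muscle, was at 77.3 CPM in injury 1 and 2198 in conduit 2, and at 5.16 to 10.5 elsewhere. Both isoforms thus stood high in the 2 libraries where the muscle genes did.

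Fitted log2 fold changes of these isoforms were 3.23 for Cox6a2 (SE 2.60) and 3.35 for Cox8b (SE 2.35), and neither passed the test. Both values rested on conduit 2, without which they were -3.19 and -2.35. Cox7a1, the muscle form of VIIa, showed no such contrast and stood at 1.32, 1.77 and 1.57 CPM in injury and 2.08, 2.31 and 1.56 in conduit (0.35, SE 0.29). It amounted to between 0.223% and 0.441% of Cox7a2 in FPKM in every library, from 53 to 92 counts. Implied lengths were 2262 bases for Cox7a1 and 479 for Cox7a2, so this share is lower in FPKM than in CPM. The widely expressed forms showed no single direction beside the muscle forms. Cox6a1 was at -0.48 on the log2 scale, conduit 2 minus conduit 3, and Cox8a at -0.45. These were the most negative values among the 40 nuclear members, whose median for that pair of libraries was -0.02. Conduit 3 was the highest library for both genes. Conduit 1 was nearer to conduit 2, at 265 against 278 CPM for Cox6a1 and at 179 against 177 for Cox8a. Injury 1, the other library with muscle genes, was higher than injury 2 in both, by 0.56 for Cox6a1 and 0.49 for Cox8a.

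**Figure D3:**
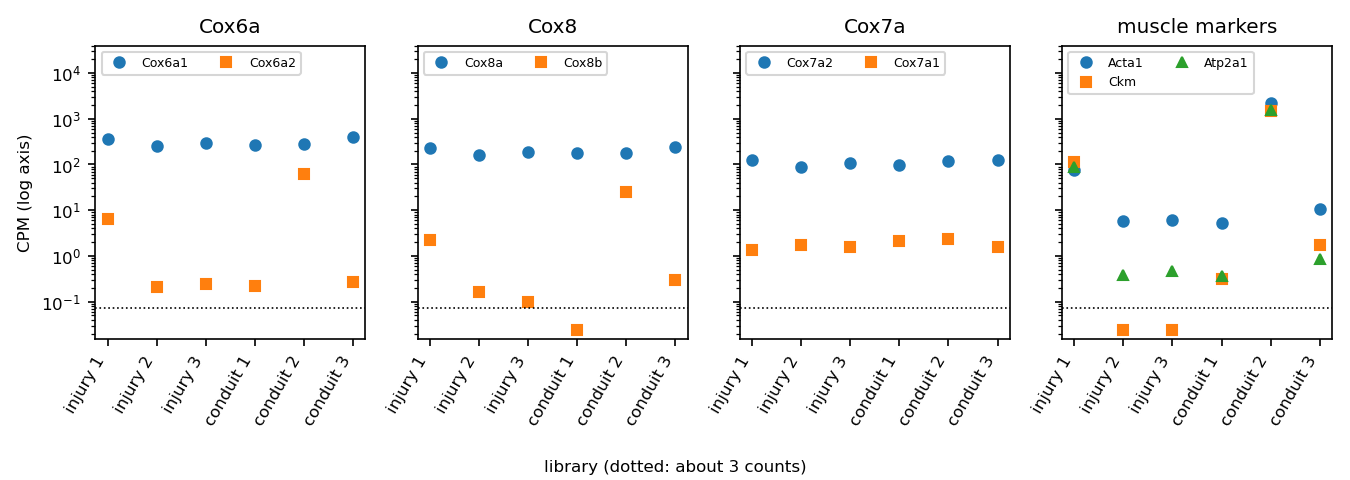
CPM on a log axis of the widely expressed and muscle forms of complex IV subunits VIa, VIII and VIIa, and of 3 muscle markers (Acta1, Ckm and Atp2a1), in each of the 6 libraries; the dotted line marks about 3 counts. Cox6a2 and Cox8b stand high in injury 1 and conduit 2, as the markers do, while Cox7a1 stays between 1.32 and 2.31 CPM.

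Complex V, the ATP synthase, summed to 8650 ± 666 CPM in injury and 9343 ± 1313 in conduit over 17 members, with a median log2 fold change of 0.11. ATP6, the mitochondrial subunit that lines the proton path, stood at 4534, 4344 and 4903 CPM in injury and at 4288, 5747 and 4857 in conduit (0.11, SE 0.13). ATP8, the small mitochondrial subunit beside it, stood at 181, 118 and 234 CPM in injury and at 175.5, 257 and 185 in conduit (0.21, SE 0.26). ATP8 had the widest spread of all members, with its range in injury nearly as wide as that over both groups.

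The catalytic head of complex V is made of nuclear subunits, among which Atp5f1b (beta) binds and forms ATP and Atp5f1c (gamma) is the rotating shaft. Atp5f1b stood at 1365, 1116 and 1193 CPM in injury and at 1102, 1572 and 1410.0 in conduit (0.15, SE 0.15). Its FPKM was between 191% and 228% of that of Atp5f1a (alpha), although both are present in equal number in the assembled enzyme. Atp5f1c was 179 ± 13.7 CPM in injury and 195 ± 25.1 in conduit (0.12, SE 0.12). Atp5pb, the b subunit of the peripheral stalk, was 187 ± 11.4 CPM in injury and 212 ± 30.1 in conduit (0.19, SE 0.12). The proton-carrying c ring is encoded by 3 genes for the same mature protein, of which Atp5mc3 was at 272 FPKM, Atp5mc1 at 114 and Atp5mc2 at 95.3. Atp5mc2 had the lowest fitted value of all members, at 97.1, 73.1 and 75 CPM in injury and 70.1, 80.4 and 75.6 in conduit (-0.12, SE 0.13).

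**Figure D4:**
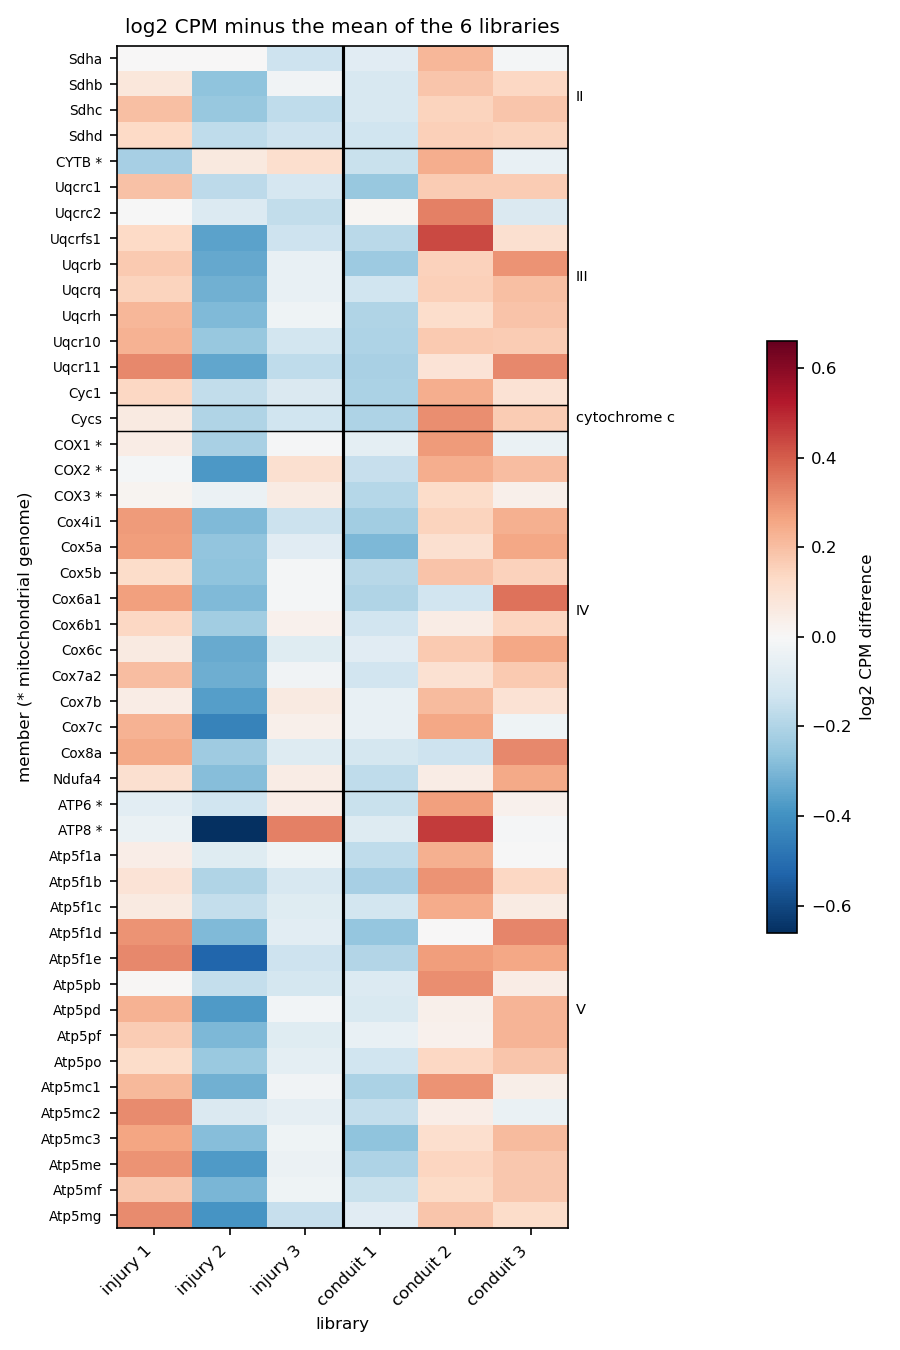
Log2 CPM of each member minus its mean over the 6 libraries, by complex, with mitochondrial genes starred; colour gives the difference and the vertical line parts injury from conduit. Injury 2, conduit 1 and, more weakly, injury 3 are mostly blue (low, with 9 of 46 members above their mean in injury 3). Injury 1, conduit 2 and conduit 3 are mostly red (high), so each group holds both high and low libraries.

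Mitochondrial and nuclear members differed in which libraries were high. The 6 mitochondrial members took 4.13%, 3.98% and 4.43% of all counts in injury 1 to 3 and 3.96%, 4.89% and 4.04% in conduit 1 to 3. The 40 nuclear members took 0.883%, 0.721% and 0.781% in injury and 0.726%, 0.888% and 0.854% in conduit. The ratio of mitochondrial to nuclear summed CPM, which is not corrected for length, was 5.29 ± 0.532 in injury and 5.23 ± 0.43 in conduit, a difference smaller than the spread. The ratio was lowest in injury 1 (4.69) and conduit 3 (4.73) and lay between 5.46 and 5.67 in the other 4 libraries. All 6 mitochondrial members were highest in conduit 2, whereas the nuclear ones were highest in injury 1 (15 of 40), conduit 2 (15) or conduit 3 (10). Injury 2 was the lowest library for 31 of the 40 nuclear members, conduit 1 for 7 and injury 3 for 2. Median log2 fold changes were 0.12 for mitochondrial members (from -0.02 to 0.21) and 0.10 for nuclear members. Conduit 2 is also the library with the highest muscle gene level, and without it the mitochondrial median was 0.0032; the part of muscle RNA in that level was not tested. Every labelled injury day precedes every conduit day, so a fit with day separates day from group poorly. With the labelled day in the fit the medians were -0.15, with 1 of 6 above 0, and 0.06, with 29 of 40 above 0. Within batch 2 they were -0.25 and -0.09, with conduit 1 above injury 3 in 0 of 6 mitochondrial and 8 of 40 nuclear members.

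Members of the nuclear set moved together from library to library, and these shifts were larger than the difference between the groups. Relative to the mean of the 6 libraries, the median nuclear member deviated by 0.17, -0.28 and -0.07 on the log2 scale in injury 1 to 3 and by -0.16, 0.16 and 0.17 in conduit 1 to 3. Injury 1 lay above its group mate injury 2 in 40 of 40 nuclear members, with a median log2 difference of 0.46. That difference ran from 0.00 in Sdha to 0.84 in Atp5f1e, and Spearman's rho of the difference with gene length was -0.52 over 40 genes, which share both libraries. For conduit 3 minus conduit 1 rho was -0.29, while it was 0.29 for conduit 2 minus conduit 1 and 0.39 for conduit 2 minus conduit 3. Shorter members were thus relatively higher in injury 1 and conduit 3, and longer ones in conduit 2. Tested genes of any function no longer than the median nuclear member (835.5 bases, as counts and FPKM imply) numbered 658. Their median deviations were 0.19, -0.19 and -0.02 in injury and -0.08, -0.02 and 0.13 in conduit. The median over genes longer than the longest nuclear member deviated by no more than 0.05 in any library. These were 11194 of the 16478 tested genes, and the scaling holds the bulk of genes near 0, so this median is no contrast to short genes. Short genes in general thus stood high in injury 1 and low in injury 2, as the nuclear members did, but not high in conduit 2. The part of transcript length in the pattern was not tested.

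Cell type markers moved with some of these shifts and against others. The 12 sensory neuron markers had median deviations of 0.17, -0.07 and -0.03 in injury and of -0.21, -0.08 and 0.30 in conduit, lowest in conduit 1 and highest in conduit 3. The 9 Schwann cell markers stood at -0.13, -0.39 and -0.22 in injury and at 0.23, 0.18 and 0.30 in conduit. Satellite glia markers were highest in conduit 1 (0.49), where nuclear members were low (-0.16). In injury 2 neutrophil markers summed to 697 CPM, against 15.2 to 134 in the other libraries, and markers of dividing cells to 114 CPM, against 15.8 to 74.7. For both lists injury 3 was the next highest library. Bone markers summed to 241 CPM in injury 2 and 332 in injury 3, against 40.1 to 69.2 elsewhere. Adipocyte markers, at low levels, summed to 39.7 CPM in conduit 2, against 0.753 to 11.5 elsewhere, and 5 of 5 tested were highest there. In bulk RNA fewer cells of a type and less RNA per cell cannot be told apart, and the part of cell makeup in these values was not tested. Without injury 1 and conduit 2, which hold the muscle genes, the median log2 fold change was 0.18 for nuclear and 0.02 for mitochondrial members. EdgeR then called 0 of 46 members, and 13 of all 16683 genes tested.

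The 7 mitochondrial genes of complex I showed a similar high point in conduit 2. Their summed level was 9508, 11231 and 11760 CPM in injury and 11402, 15925 and 10905 in conduit, and 6 of 7 were highest in conduit 2. Injury 1 was low for them, with a median deviation of -0.33, whereas it was near the mean for the 6 mitochondrial members (-0.03) and high for the nuclear members.

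**Figure D5:**
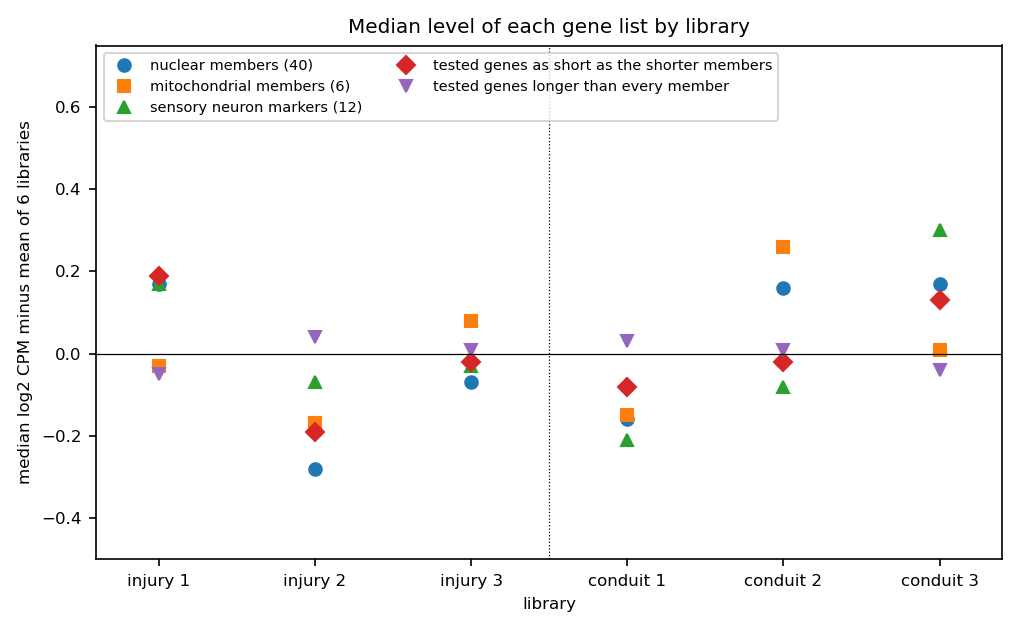
Median deviation of log2 CPM from the mean of the 6 libraries, for nuclear and mitochondrial members and for the comparison lists, in each library. Symbols mark the lists, and the dotted line parts injury from conduit. Nuclear members run from -0.28 in injury 2 to 0.17 in injury 1 and conduit 3, while mitochondrial members peak at 0.26 in conduit 2.

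Assembly factors, which insert haem and copper, hold partly built intermediates or fold the ATP synthase head, were measured for 41 listed genes. EdgeR called 0 of 41 at an adjusted p of 0.05 (0.00607% of all genes), and DESeq2 called 1, Cmc1 (1.19% of all genes). At an unadjusted edgeR p of 0.05, Cmc1 and Cox20 passed, both higher in conduit (2 of 41, where 2.99% of all genes were higher and 2.36% lower), and the list's median was 0.09. In 4 of 41 (Cmc1, Cox20, Taco1 and Atpaf2) every conduit library lay above every injury library, against 5.41% of all genes, and in 0 of 41 every one lay below, against 4.22%. Cmc1, which holds newly made COX1 in an early assembly intermediate of complex IV, stood at 7.76, 5.58 and 6.70 CPM in injury and at 11.2, 13.2 and 13.1 in conduit. The groups did not overlap, and the log2 fold change was 0.90 (SE 0.17, 95% interval 0.51 to 1.3). Its edgeR adjusted p was 0.38, while DESeq2 gave an adjusted p of 0.000884. Conduit 1 was above injury 3 within batch 2 as well, by 0.74.

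Cox20, a chaperone of COX2, stood at 20, 20.6 and 22.0 CPM in injury and at 24.8, 23.5 and 25.2 in conduit (0.23, SE 0.09, adjusted p = 0.907). The translational activator of COX1, Taco1, was at 4.30, 4.82 and 4.65 CPM in injury and at 5.45, 5.65 and 5.42 in conduit (0.26, SE 0.16). Coa6, needed to deliver copper to COX2, had overlapping groups (0.30, SE 0.19). COX1 and COX2 themselves differed by 0.12 and 0.19 with overlapping groups. Dmac2l, a factor of the ATP synthase coupling region, was the other gene named from the isoform list (0.17, SE 0.14). In that list edgeR called 0 of 11 tested genes (adjusted, 0.00607% of all genes) and the median was 0.15.

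Over 12 regulators of mitochondrial and nuclear respiratory genes the median log2 fold change was 0.12. EdgeR called 0 of them at an adjusted p of 0.05 (0.00607% of all genes) and 0 unadjusted (5.35%). Ppargc1a, the coactivator PGC-1 alpha, stood at 17.0, 17.5 and 18.1 CPM in injury and at 18.8, 21.1 and 19.0 in conduit, without overlap (0.16, SE 0.10). Slirp, which with Lrpprc protects mitochondrial messenger RNA, was the other gene of the 12 without overlap, so 2 of 12 lay wholly higher where 5.41% of all genes did (0.20, SE 0.13). Nrf1, which binds the NRF-1 motif shown above, differed by -0.04 (SE 0.14), and Gabpa, which binds the ETS motif, by 0.20 (SE 0.11). These 4 were chosen after their values were seen.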

How the data were processed

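RNA was purified as mRNA and sequenced in pairs of reads, per the labels' protocols. Tools named in the submitters' processing notes were fastp, HISAT2, SAMtools, HTSeq and DESeq2, with the build mRatBN7.2. Versions, annotation and strand setting were not given in the sources used here. Deposited counts are unscaled whole reads per gene symbol. The deposited FPKM divide the counts by gene length and library total (both gave 1 length per gene within 1% in 14394 of 14394 genes checked), so they are no second measurement. Groups came from the titles.

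In R 4.3.3, edgeR 4.0.16 (filterByExpr with a minimum of 10 counts, TMM scaling, robust quasi-likelihood F test, no covariate) tested 16478 genes with Benjamini-Hochberg adjustment over all of them. The fit had 4 residual degrees of freedom and a common biological coefficient of variation of 0.295. DESeq2 1.42.0, limma 3.58.1 (voom, and log2 FPKM with a pseudocount of 1 or 0.1), other scalings and filters, a term for replicate number, batch or day, each library left out and batch 2 alone were alternatives. Leaving out injury 1 with conduit 2 was added after the data were seen. A prior count of 2 was used for log2 CPM of single libraries. The scripts were tested on simulated data.

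The members and lists were chosen with earlier results of these data known. Named were the 6 mitochondrial members, the 3 nuclear members with the smallest p in complexes II, III with Cycs, IV and V, 4 assembly factors and 4 genes of the isoform list by smallest p, muscle isoforms with the forms they replace, and the highest and lowest level of each complex. Other genes given values (Sdha, Cycs without conduit 1, Atp5f1a, Atp5f1e, Atp5me, Atp5mc1, Atp5mc3 and the regulators) were chosen after their values were seen. Of 44 listed assembly factors, 41 matched a symbol; of 14 genes of the isoform list, 11 passed the filter. The RefSeq table held 40 of the 46 members by symbol.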

Additional observations from a re-analysis of the deposited data

How the results depend on the processing

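EdgeR called 0 of 46 members under every alternative that gives a test, as did DESeq2 and limma-voom. At an unadjusted p of 0.05, Sdhc and Atp5mg passed without injury replicate 1 and Cycs without conduit replicate 1, and no member otherwise. The members' median log2 fold change of 0.10 ran from 0.01 to 0.23 with each library left out. It turned to -0.10 with batch in the fit and in batch 2 alone, which both rest on injury 3 and conduit 1; the cause was not tested.

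With batch in the fit or batch 2 alone, these turned as well: COX1 -0.06, COX2 -0.26, ATP6 -0.19, ATP8 -0.42, CYTB -0.26, Sdhb -0.08, Uqcrfs1 -0.04, Cycs -0.07, Cox7b -0.11, Cox5b -0.17, Atp5f1c -0.04 and Atp5f1b -0.11. Cox8b was -1.87 with batch in the fit and -0.99 in batch 2 alone, and Cox6a2 -0.15 and -0.12. The labelled day in the fit, poorly separable from group, gave medians of -0.15 for mitochondrial, 0.06 for nuclear and -0.03 for complex IV members. With day in the fit COX2 was -0.16, ATP6 -0.11, ATP8 -0.15, CYTB -0.29 and Cox5b -0.03. CYTB was -0.03 with library totals only and on log2(FPKM + 1) or log2(FPKM + 0.1), where medians over all tested genes were -0.05, -0.04 and -0.05. Without injury 1 and conduit 2, ATP6 was -0.0043 and CYTB -0.17.

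Leaving out single libraries moved these values across 0: COX3 -0.08 to 0.07, ATP8 -0.01 to 0.46, CYTB -0.08 to 0.11, Cox8b -2.35 to 6.0 and Cox6a2 -3.19 to 6.54. Cmc1 kept its direction under all alternatives (0.66 to 1.03), with adjusted p from 0.000884 (DESeq2) to 1.0.

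The replicate numbers did not pair the samples (r of same-numbered deviations -0.417, 0.057 and -0.071). With the replicate block the members' median was 0.11 and edgeR called 0 members and 0 of all genes, against 1.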
